A study of Schizosaccharomyces pombe with 6 samples.

Results

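The hexose transporter (ght) family of *Schizosaccharomyces pombe* has 8 members, *ght1* to *ght8*, which were located by symbol in the ASM294v3 annotation among 5113 protein-coding genes. Chromatin immunoprecipitation sequencing (ChIP-seq) peaks of Hap2-GFP and of Arp5-3HA were examined over each member. Both proteins were tagged in 1 strain, B4628 (Hap2-GFP-KAN Arp5-3HA-NAT in the strain table), so every sample carried both tags, and all cells were grown in YES rich medium with no further treatment. Anti-GFP was used to precipitate Hap2 and anti-HA to precipitate Arp5, with 2 replicates of each protein and a separate list of peaks for each replicate. The labels do not say whether replicates were separate cultures, and the 2 input samples and any untagged control were not analysed here.

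Ght proteins are sugar transporters of the plasma membrane, and fission yeast uses them to bring in glucose, fructose and gluconate as the carbon source changes. Growth on scarce glucose rests mainly on Ght5, whose gene is held down by the repressor Scr1 while glucose is plentiful. Hap2 and Arp5 are subunits of the Ino80 complex (Ino80C), an ATP-driven machine that slides nucleosomes and exchanges their histones at promoters and along transcribed genes.

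The lists hold 3758 and 4259 Hap2 peaks and 4206 and 4277 Arp5 peaks on the 3 chromosomes. The share of chromosomal bases under a peak was 10.9 and 12.0% in the Hap2 lists and 11.4 and 11.8% in the Arp5 lists. Besides its limits and summit, every peak carries a score, which was read only as a rank within its list, since its scale is not given. The percentile of a peak is the percent of peaks in its list that score no higher. The lists hold no reads, so depth is unknown, and a gene without a peak may still carry either protein. Peaks were counted over the annotated gene body and over the 1000 bp upstream of the gene start. With 2 lists against 2 an exact permutation test cannot give a p below 0.333, so values of all lists are given without a test, beside the share of all coding genes that meet the same rule.

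Replicate numbers were not independent across the proteins. Among peaks that overlapped between a Hap2 and an Arp5 list of the same replicate number, 29.9 to 33.4% had their summit at the identical base. For a Hap2 and an Arp5 list of different numbers this share was 2.93 to 3.07%, and for the 2 lists of one protein it was 2.72 to 3.72%. At the ght genes 4 summits were identical between Hap2 and Arp5 of replicate 1, and 2 between Hap2 and Arp5 of replicate 2, against 0 in every other pair of lists. Summits at these genes all stood whole steps of 10 bp apart, so an identical base there means the same step of 10 bp. Whether this holds for all peaks was not counted. What the same-numbered lists share is not stated, and its part in the peaks of the 2 proteins was not tested.

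**Figure D1:**
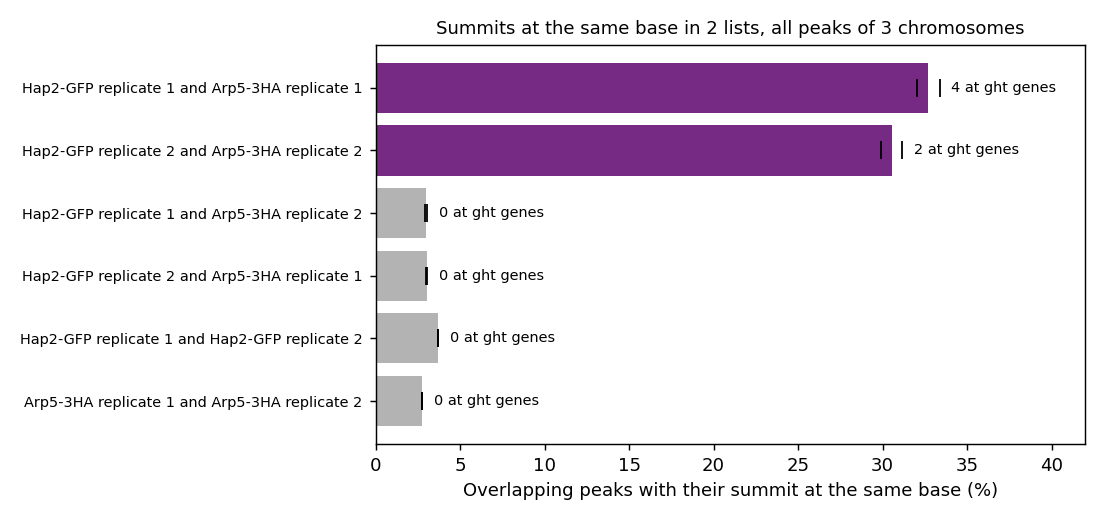
Share of overlapping peaks whose summit is listed at the identical base in both lists (percent, x axis), for each pair of lists; bars are the mean of the shares counted from either list, ticks are those shares, and the text gives the number of such summits at ght genes. Both pairs of Hap2-GFP and Arp5-3HA lists with the same replicate number lie between 29.9 and 33.4%, and the other 4 pairs between 2.72 and 3.72%.

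Members differed in what they carried over the body and the upstream window: *ght8*, *ght2* and *ght5* had body peaks of both proteins, *ght1*, *ght3* and *ght4* had Hap2 peaks almost wholly outside the coding sequence and no Arp5 peak in body or window, and *ght6* and *ght7* had next to nothing. Hap2 lay upstream of 5 of the 8 members in both lists (*ght1*, *ght2*, *ght3*, *ght5* and *ght8*), against 25% of all coding genes. At *ght5* the summits of that peak lay inside the body of the neighbouring coding gene, SPCC1235.18. Arp5 lay upstream of 1 member in both lists (*ght8*), against 11.6%. Over gene bodies the counts were near the background: 4 members had a Hap2 peak in both lists against 31% of coding genes, and 3 had an Arp5 peak in both lists against 38.1%. The same 3 members, *ght2*, *ght5* and *ght8*, had a body peak in all 4 lists, against 23.6%, and 2 members (*ght3* and *ght7*) had none in any list, against 31.3%.

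Most Arp5 summits at the members lay in coding sequence. Hap2 summits were split almost evenly between coding sequence and the stretch before the start codon. These shares were not counted over all coding genes. Of the 36 Hap2 peaks at the family, 15 had their summit before the gene start, 3 between the gene start and the start codon, 16 in coding sequence and 2 past the gene. Of the 19 Arp5 peaks, 3 summits lay before the gene start, 1 between gene start and start codon, 12 in coding sequence, 2 after the stop codon and 1 past the gene. Upstream sequence was covered more in both Hap2 lists than in either Arp5 list at 5 members, against 18.4% of coding genes, and the opposite order was seen at 0 members, against 2.54%. Bodies were covered more in both Arp5 lists than in either Hap2 list at 3 members (*ght2*, *ght5* and *ght8*), against 19.1% of coding genes, and more in both Hap2 lists at 1 member (*ght4*), against 6.24%. By this rule every Hap2 and Arp5 pair of lists follows the same order, so it is no check on what same-numbered lists share.

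**Figure D2:**
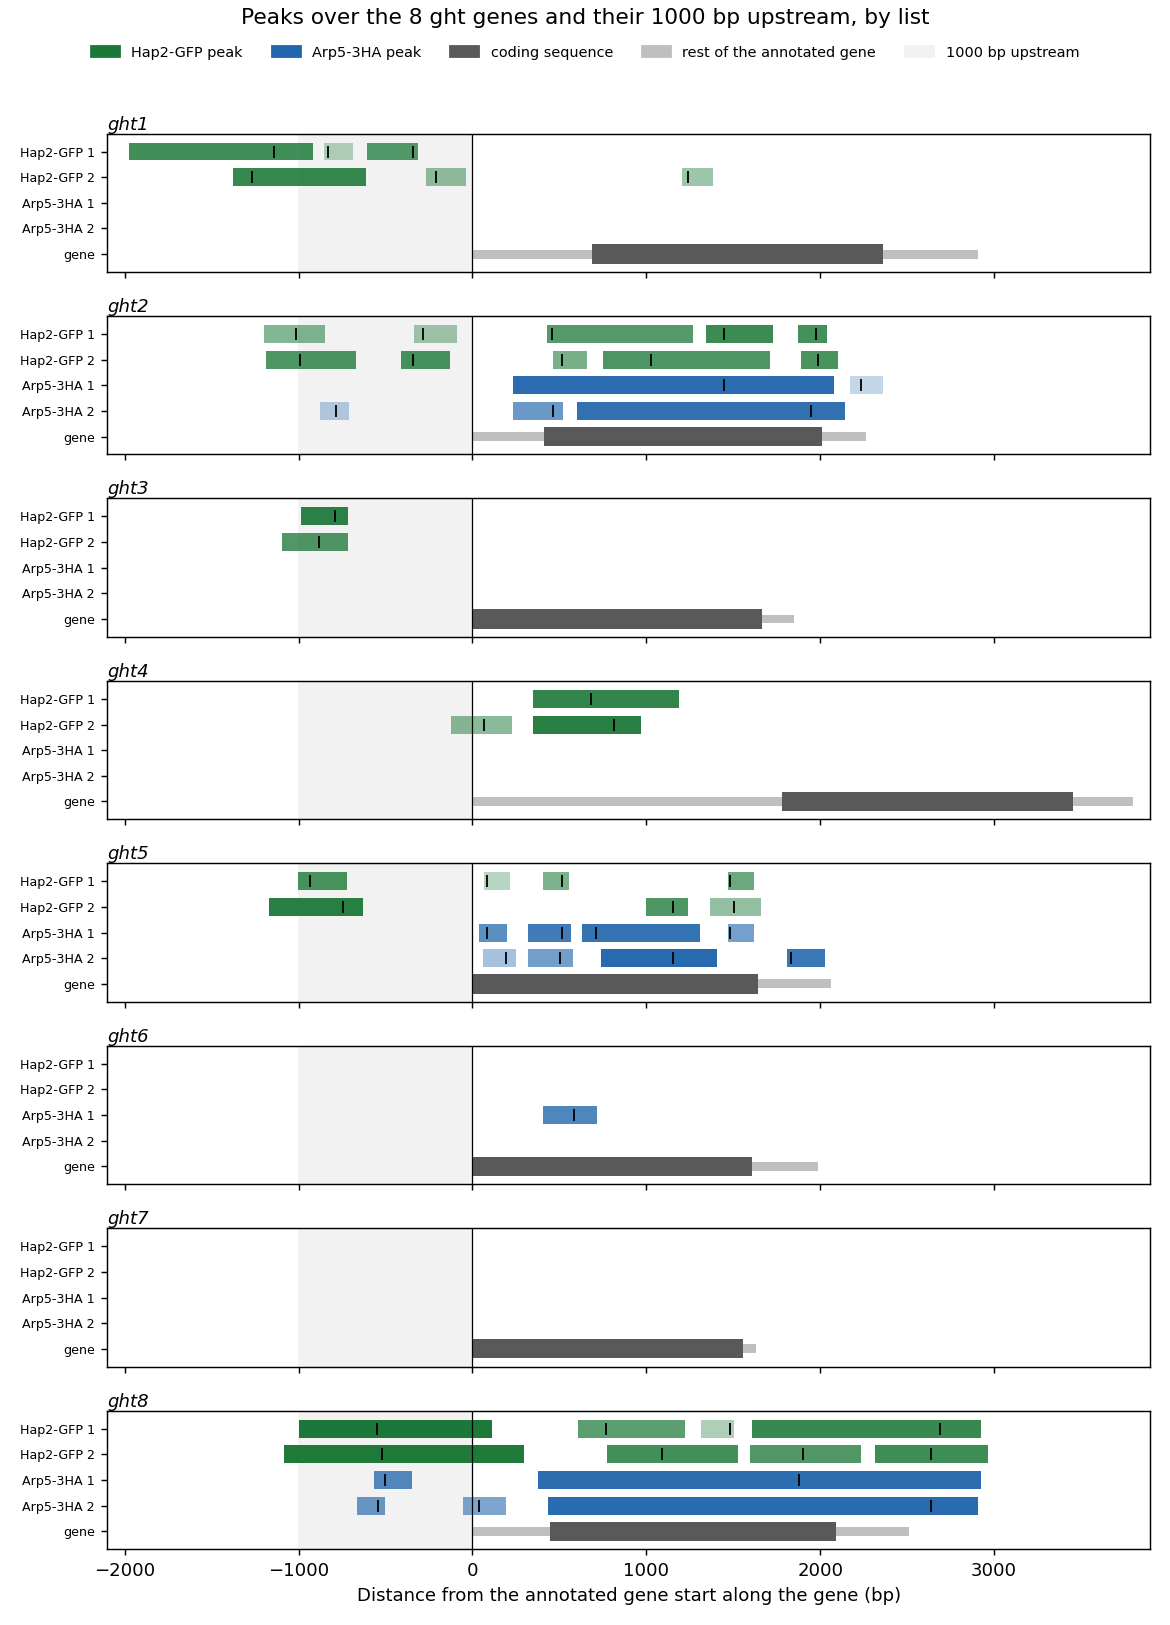
Peaks of the 4 lists that touch the body or upstream window of the 8 ght genes, drawn by distance from the annotated gene start along the gene (bp); green bars are Hap2-GFP peaks, blue bars Arp5-3HA peaks, black ticks summits, and a deeper shade a higher score percentile within the list. Hap2-GFP peaks fill the upstream window of *ght8*, Arp5-3HA peaks run through the coding sequences of *ght8* and *ght2*, and *ght7* has no peak in any list.

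Averaged over the 8 members, bodies were covered for 22.3 and 23.7% of their length by Hap2 and 30.8 and 29.5% by Arp5, against means over all coding genes of 10.5 and 11.3% for Hap2 and 13.1 and 13.3% for Arp5. Over the members the median was 10.9 and 14.3% for Hap2 and 7.81 and 0% for Arp5, and over all coding genes it was 0% in every list. Upstream coverage averaged 31.1 and 37.5% for Hap2 at the members, against 10.4 and 11.2% at all coding genes. Arp5 upstream coverage averaged 2.75 and 4.81% at the members, against 5.06 and 5.25% at all coding genes. The upstream median of the members was 27.4 and 32.7% for Hap2 and 0% in both lists for Arp5, with *ght8* far above the other members for Hap2 and *ght6* and *ght7* at 0%.

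**Figure D3:**
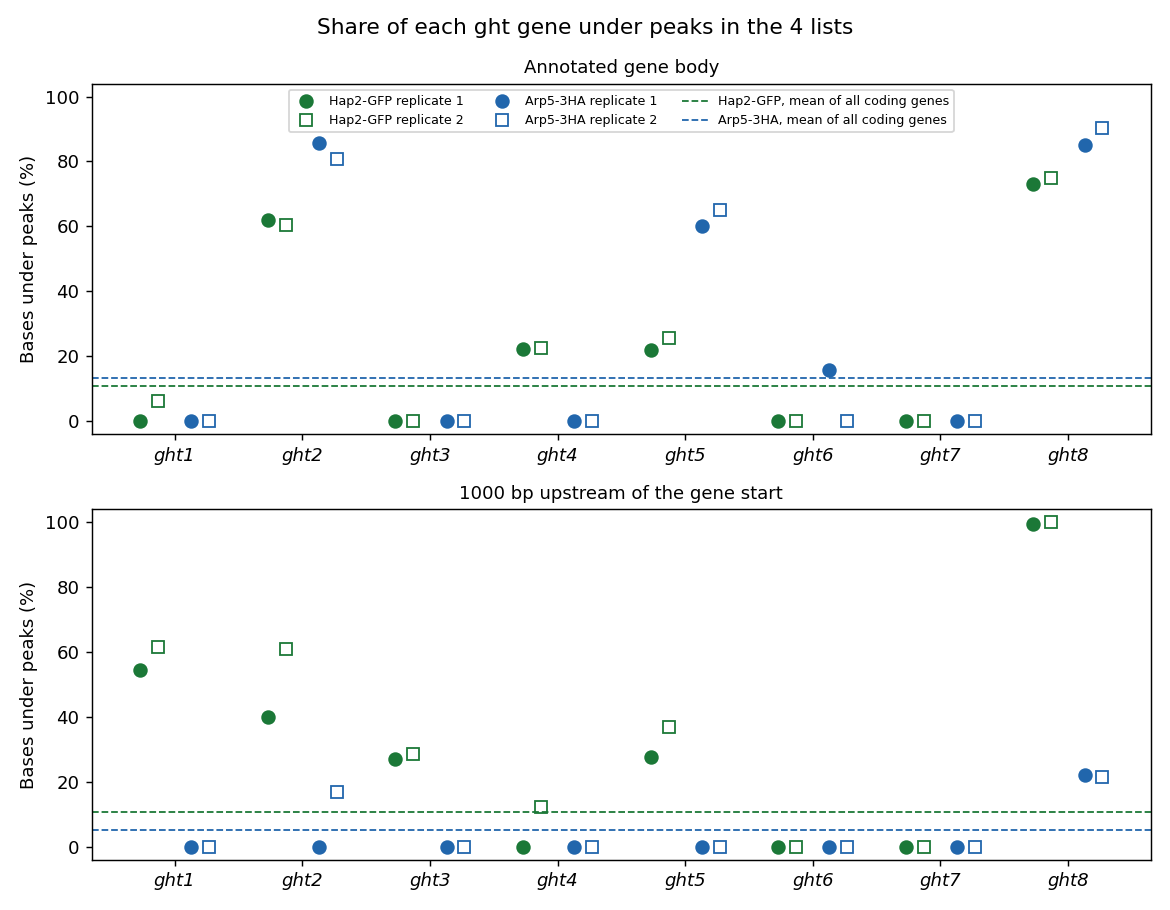
Percent of bases under peaks in each list (y axis) for the 8 ght genes (x axis), over the gene body and over the 1000 bp upstream; filled circles are replicate 1, open squares replicate 2, green Hap2-GFP and blue Arp5-3HA, and dashed lines are means over all coding genes. Over the bodies of *ght2*, *ght5* and *ght8* both Arp5-3HA symbols lie above both Hap2-GFP symbols, and upstream of *ght1*, *ght2*, *ght3*, *ght5* and *ght8* both Hap2-GFP symbols lie above both Arp5-3HA symbols.

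*ght5* (SPCC1235.14, chromosome III, 212313-214376, plus strand) encodes the high-affinity glucose and fructose symporter. Its body was covered for 21.8 and 25.7% by Hap2 and 60.1 and 64.9% by Arp5, a mean difference of Hap2 minus Arp5 of -38.8 percentage points and the widest gap of the family. Hap2 covered 27.4 and 31.3% of its coding sequence, and Arp5 covered 75.6 and 68.3%. In replicate 1 the 3 Hap2 body peaks had summits at 83, 513 and 1483 bp, each also the summit of an Arp5 peak of that replicate. In replicate 2 the 2 Hap2 body peaks had summits at 1153 and 1503 bp, and the first of these was also an Arp5 summit. Every Hap2 body peak was short, 150 bp each in replicate 1 and 240 and 290 bp in replicate 2. Their percentiles were 8.70, 43.6 and 52.3 in replicate 1 and 71.0 and 29.0 in replicate 2. Only the peaks at 1483 and 1503 bp overlapped between the replicates. The longest Arp5 peaks ran for 680 bp in replicate 1 (percentile 88.2) and 670 bp in replicate 2 (percentile 96.4, rank 154 of 4277).

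Upstream of *ght5*, Hap2 covered 27.8 and 36.8% of the window and Arp5 0% in both lists. *ght5* was the 1 member with Arp5 over the body in both lists and none upstream in either, against 26.8% of coding genes. This Hap2 peak was 280 bp long with its summit 937 bp before the gene start in replicate 1 (percentile 73.0), and 540 bp long with its summit at 747 bp in replicate 2 (percentile 92.7, rank 313 of 4259). In replicate 1 it lay wholly inside the annotated body of the coding gene before *ght5*, SPCC1235.18. In replicate 2 its summit and most of its length lay there too. That gene ends 664 bp from *ght5* on the same strand. The body of SPCC1235.18 was covered for 33.3 and 81.9% by Hap2 and 0% by Arp5 in both lists. The peak may therefore belong to either gene, and the lists cannot tell which.

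*ght1* (SPCC548.07C, chromosome III, 232288-235195, minus strand) encodes another high-affinity glucose symporter. Hap2 covered 54.5 and 61.5% of its upstream window and Arp5 covered 0% in both lists, a difference of 58 percentage points. The highest-ranking Hap2 peaks there were 1060 bp long with a summit 1141 bp before the gene start (percentile 77.9) in replicate 1 and 760 bp long with a summit at 1271 bp (percentile 84.2) in replicate 2, so both summits lay outside the window. Beyond the window this stretch was not free of Arp5: replicate 2 had Arp5 peaks of 190 and 200 bp there, with summits 1291 and 1851 bp before the gene start, and replicate 1 had none. The next coding gene, SPCC1529.01, lies 2073 bp away on the plus strand, so this stretch is upstream of both genes. A chain of overlapping Hap2 peaks of the 2 lists ran on into its body. These peaks may therefore belong to either gene, and the lists cannot tell which. The noncoding RNA genes SPNCRNA.1121, SPNCRNA.6756 and SPNCRNA.6757 also lie under the highest-ranking peaks. Nearer *ght1*, replicate 1 had a summit at 341 bp (percentile 65.8) and replicate 2 at 211 bp (percentile 29.0), in peaks that did not overlap. Over the body a single Hap2 peak of 180 bp was listed in replicate 2 (percentile 23.7), giving 0 and 6.19% for Hap2 and 0% in both lists for Arp5. The annotated leader of *ght1* before the start codon is 688 bp long, and with the window set upstream of the start codon *ght1* no longer had a Hap2 peak there in both lists. The replicate 1 peak with its summit at 341 bp had its near edge only a few bp beyond that window.

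*ght2* (SPBC4B4.08, chromosome II, 3427160-3429424, plus strand) encodes a glucose and fructose symporter. It lies 1110 kb from the nearest chromosome end, and no stretch of 50 bp in its body occurs again in the genome. Hap2 covered 61.8 and 60.5% of the body and Arp5 85.8 and 80.8%, a difference of -22.2 percentage points. Only 258 and 257 coding genes had more of their body under Hap2, and 102 and 121 under Arp5. Arp5 covered 100 and 95.0% of the coding sequence, in peaks of 1850 bp (percentile 94.8, rank 221 of 4206) and 1540 bp (percentile 90.7, rank 399 of 4277). Hap2 covered 85.7 and 80.0% of it in 3 peaks per list, with the highest percentiles at 81.2 and 73.4.

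Upstream of *ght2*, Hap2 had a pair of peaks in each list, covering 40.1 and 61.1% of the window, against 0 and 17% for Arp5. The far peak had its summit 1014 and 994 bp before the gene start (percentiles 38.7 and 71.0). The near peak had its summit at 284 and 344 bp (percentiles 20.4 and 75.1), and no Arp5 peak met it. The sole Arp5 peak in the window, 170 bp long at percentile 8.98 in replicate 2, met only the far peak. In each list both Hap2 peaks overlapped the long noncoding RNA gene SPNCRNA.6127. The sequences given are 201 bp around the midpoint between the summits of each Hap2 peak, since these are the places at which the Hap2 replicates met outside the *ght2* gene. Capitals mark matches on either strand to TGACGT, the core site of the stress factor Atf1-Pcr1, to CCCCTC, the element of the glucose-repressed activator Rst2, to CTGGGG, the core bound by Scr1-type repressors, or to the TATA box TATAAA.
ght2 far peak, chromosome II 3426056-3426256, plus strand: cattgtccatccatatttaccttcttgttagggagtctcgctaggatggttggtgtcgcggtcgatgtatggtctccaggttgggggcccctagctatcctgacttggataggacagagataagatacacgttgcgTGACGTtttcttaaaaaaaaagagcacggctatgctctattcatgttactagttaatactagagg
ght2 near peak, chromosome II 3426746-3426946, plus strand: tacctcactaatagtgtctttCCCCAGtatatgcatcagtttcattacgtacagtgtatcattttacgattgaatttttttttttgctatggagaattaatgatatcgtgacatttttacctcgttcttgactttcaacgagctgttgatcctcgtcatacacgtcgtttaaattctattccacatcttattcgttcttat
The far sequence holds TGACGT and the near one CCCCAG, which is CTGGGG on the other strand. Sequences were read from the RefSeq genome of ASM294v3.

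*ght6* (SPCC1235.13, chromosome III, 204733-206717, plus strand) encodes a glucose and fructose symporter as well, but was nearly empty. Hap2 covered 0% of its body in both lists and Arp5 15.6 and 0%. The only peak was 310 bp long, at 583 bp in the coding sequence (percentile 72.5), in Arp5 replicate 1. With no peak in the other Arp5 list, the 2 replicates did not agree on *ght6*.

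*ght3* (SPAC1F8.01, chromosome I, 82936-84786, plus strand) encodes the gluconate symporter, and it had Hap2 upstream and nothing else. Hap2 covered 27 and 28.5% of the window and Arp5 0% in both lists, while the body was at 0% in all 4. The Hap2 peak was 270 bp long with its summit at 790 bp before the gene start in replicate 1 (percentile 90.3, rank 366 of 3758), and 380 bp long with its summit at 880 bp in replicate 2 (percentile 69.0). The summits lay 90 bp apart, inside the long noncoding RNA gene SPNCRNA.603. The sequence around their midpoint is shown as the one place where this gene had a peak.
ght3 upstream peak, chromosome I 82001-82201, plus strand: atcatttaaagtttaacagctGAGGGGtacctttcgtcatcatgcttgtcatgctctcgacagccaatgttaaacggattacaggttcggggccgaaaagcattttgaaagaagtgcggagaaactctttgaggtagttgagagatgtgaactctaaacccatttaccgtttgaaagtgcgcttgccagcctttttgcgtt
It holds GAGGGG, which is CCCCTC on the other strand.

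*ght8* (SPCC548.06C, chromosome III, 226336-228845, minus strand) is annotated as a hexose transporter with no sugar named, and was the most covered member. Hap2 covered 99.5 and 100% of the upstream window, against 22.0 and 21.5% for Arp5, a difference of 78.0 percentage points. Only 31 coding genes had more of that window under Hap2 in replicate 1, and 0 in replicate 2. The Hap2 peak was 1110 bp long in replicate 1 (percentile 99.7, rank 14 of 3758) and 1380 bp long in replicate 2 (percentile 97.9, rank 90 of 4259). Its summits lay 551 and 521 bp before the gene start, 30 bp apart. In both lists this peak overlapped the long noncoding RNA gene SPNCRNA.6754, so it may belong to either gene. Arp5 had a peak of 220 bp with its summit at 501 bp (percentile 69.3) and one of 160 bp with its summit at 541 bp (percentile 55.3) at the same place. This Hap2 peak was the highest-ranking of the family in both Hap2 lists.

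Over the body of *ght8*, Hap2 covered 72.9 and 74.9% and Arp5 85.1 and 90.4%, a difference of -13.8 percentage points. A single Arp5 peak spanned the whole coding sequence in each list, 2550 bp long in replicate 1 (percentile 93.7, rank 264 of 4206) and 2470 bp in replicate 2 (percentile 95.9, rank 175 of 4277). Hap2 covered 78.7 and 75.7% of the coding sequence in several peaks. At the far end of the gene both Hap2 lists had a peak whose summit lay past the annotated end, 2689 and 2639 bp from the gene start, over the noncoding RNA gene SPNCRNA.460. The summit of the long Arp5 peak of replicate 2 lay at the same base as the Hap2 summit of that replicate, at 2639 bp, whereas that of replicate 1 lay in the coding sequence at 1879 bp. This end of *ght8* is also upstream of the next coding gene, *dbl5*, 517 bp away on the same strand. The 1000 bp upstream of *dbl5* was covered for 89.8 and 85.8% by Hap2 and 89.8 and 87.8% by Arp5. Peaks at this end may therefore belong to either gene, and the lists cannot tell which.

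*ght4* (SPBC1683.08, chromosome II, 155772-159570, plus strand), a hexose transporter gene with a leader of 1783 bp before its start codon, was the only member whose body was covered more in both Hap2 lists than in either Arp5 list. Hap2 covered 22.1 and 22.3% and Arp5 0% in both lists. All of this lay in the leader, and the coding sequence was at 0% in all 4 lists. The main peak was 840 bp long with its summit 684 bp after the gene start in replicate 1 (percentile 87.1) and 620 bp long with its summit at 814 bp in replicate 2 (percentile 93.4, rank 282 of 4259). The noncoding RNA genes SPNCRNA.1318 and SPNCRNA.298 lie over the same stretch, so the peak can be assigned to the leader or to either of them. Counted upstream of the start codon, *ght4* had Hap2 in both lists.

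*ght7* (SPBC1348.14C, chromosome II, 38514-40143, minus strand), another hexose transporter gene and the member nearest a chromosome end (38.5 kb), had no peak over its body or upstream window in any list. Among coding genes 21.2% had none. Members near a chromosome end were not uniformly empty of Hap2, since *ght3* at 82.9 kb and *ght4* at 156 kb both had a Hap2 peak in both lists. Neither had an Arp5 peak.

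**Figure D4:**
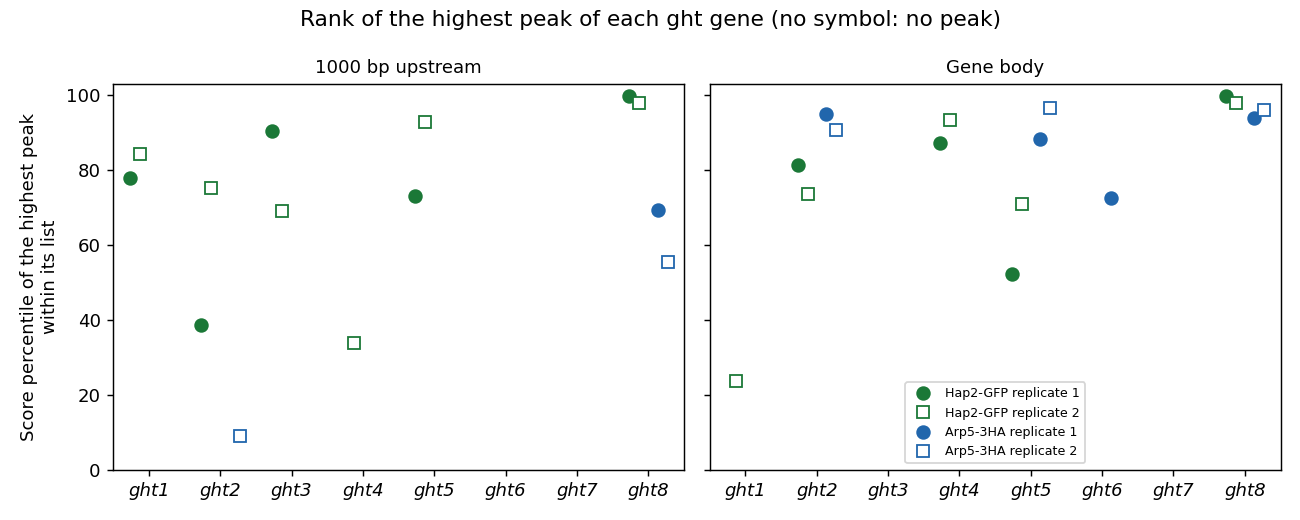
Score percentile within its list of the highest peak over each ght gene (y axis), for the 1000 bp upstream and for the gene body; filled circles are replicate 1, open squares replicate 2, green Hap2-GFP, blue Arp5-3HA, and no symbol means no peak. The Hap2-GFP symbols of *ght8* at 99.7 and 97.9 appear in both panels because that upstream peak reaches into the gene, and the Arp5-3HA body symbols of *ght2*, *ght5* and *ght8* lie between 88.2 and 96.4.

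Within the family, peaks of both replicates that overlapped formed 12 Hap2 regions and 6 Arp5 regions. All 6 Arp5 regions met a Hap2 peak. Of the 12 Hap2 regions, 8 met an Arp5 peak and 4 did not, and those 4 were the near *ght2* peak, the *ght3* peak, the *ght4* leader peak and the *ght5* upstream peak. All 4 lie outside the coding sequence of the ght genes. A peak in 1 list of the other protein was enough to count as a meeting. The *ght1* region met Arp5 in replicate 2 only. The share of all Hap2 regions that meet Arp5 was not counted. Among single peaks, 2081 and 1874 of the 3758 in Hap2 replicate 1 overlapped a peak of Arp5 replicates 1 and 2. For Hap2 replicate 2 these were 1918 and 2386 of 4259. Around 6 of the 7 Hap2 regions outside coding sequence, TGACGT was found in 2 windows of 201 bp, CCCCTC in 2, CTGGGG in 1 and TATAAA in 1. Of 62545 windows of that length along the chromosomes, 3.22, 1.96, 2.19 and 25.1% held them. The *ght1* window was centred between summits 820 bp apart and held neither of them. It gave 1 of the TGACGT windows and the only TATAAA window. No match overlapped another, and with 6 windows these counts are only a description of letters.

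A group of 4 members lies together on the left part of chromosome III, in the order *ght6*, *ght5*, *ght8* and *ght1*, across 30.5 kb with 10 coding genes. The first pair reads on the plus strand and the last pair on the minus strand, with gaps of 5.60, 12.0 and 3.44 kb. Peaks covered 18.4 and 21.7% of this stretch for Hap2, against 11.5 and 12.2% of chromosome III as a whole. For Arp5 they covered 15.2 and 13.9%, against 12.3 and 12.2%. Coverage was not shared evenly among the neighbours: *ght8* lay under peaks for most of its length in every list, *ght6* at one end had a single Arp5 peak, and *dga1* and *wtf4* between *ght5* and *ght8* had none over body or upstream window in any list. Of the 14 Hap2 peaks per list in the stretch, 7 touched a ght body, and of the 9 and 7 Arp5 peaks, 6 did in each list.

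**Figure D5:**
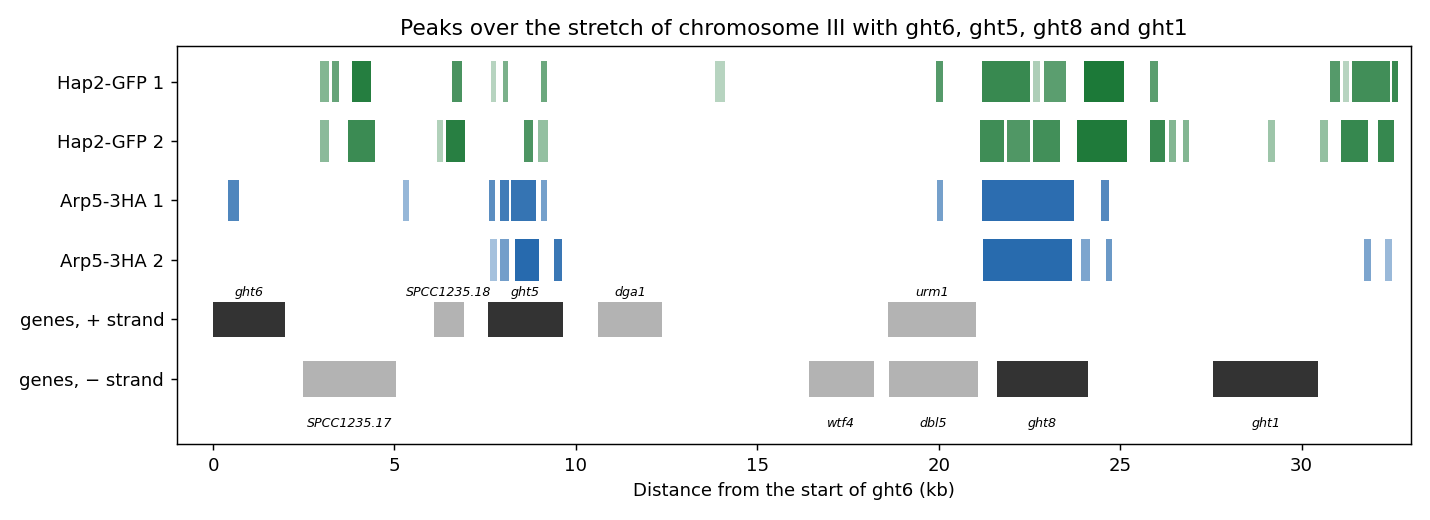
Peaks of the 4 lists along the stretch of chromosome III that holds *ght6*, *ght5*, *ght8* and *ght1*, by distance from the start of *ght6* (kb); green bars are Hap2-GFP peaks, blue bars Arp5-3HA peaks, deeper shades higher score percentiles, dark boxes ght genes and grey boxes other coding genes. The longest bars lie over *ght8* or just upstream of it in all 4 lists, and the region of *dga1* and *wtf4* is almost bare.

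Some neighbours are near copies of one another, which bears on where reads can be placed. Coding identity between the 28 pairs of members ran from 63.7 to 92.2%, with a median of 70.9%. The closest pair was *ght5* and *ght8* at 92.2%, with a longest identical run of 248 bp. Next came *ght3* and *ght4* at 81.8% and *ght1* with *ght5* at 78.8%. Stretches of 50 bp that occur again in the genome made up 29.6% of those in the *ght5* body and 24.7% in *ght8*, against 11.8% in *ght3*, 5.65% in *ght4*, 5.39% in *ght1*, 2.01% in *ght6* and 0% in *ght2* and *ght7*. The 81 bp windows given here are identical in *ght5* and *ght8* and are shown because reads inside them fit both genes equally well.
ght5 and ght8, coding positions 469 to 549: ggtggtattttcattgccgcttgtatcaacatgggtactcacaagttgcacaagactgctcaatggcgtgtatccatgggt
ght5 and ght8, coding positions 1114 to 1194: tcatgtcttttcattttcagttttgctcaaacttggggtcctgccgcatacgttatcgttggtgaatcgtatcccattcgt
They lie on chromosome III at 212781-212861 and 213426-213506 in *ght5* (plus strand) and at 227852-227932 and 227207-227287 in *ght8* (minus strand). In *ght8* a peak lay over each window in all 4 lists. In *ght5* both Arp5 lists had a peak over each, while Hap2 had one over the first only in replicate 1 and over the second only in replicate 2.

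In *ght5* the gap between Arp5 and Hap2 was wider on repeated bases than on others. A base was called repeated where a 50 bp stretch containing it occurs again in the genome, which held for 841 bases of the *ght5* body and 871 of the *ght8* body. In *ght5* Arp5 covered 90.4 and 88.1% of repeated bases and 39.2 and 49.0% of the 1223 other bases. Hap2 covered 24.3 and 28.2% of repeated bases there and 20.1 and 24.0% of the others. Over the other bases of *ght5* both Arp5 lists thus still lay above both Hap2 lists. One peak per list in *ght5* held no repeated base, and the Hap2 ones, at 1483 and 1503 bp, overlapped, whereas the Arp5 ones, at 1483 and 1833 bp, did not.

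In *ght8* Arp5 covered 100% of repeated bases in both lists and 77.1 and 85.4% of the 1639 others, and Hap2 covered 61.5 and 66.2% of repeated bases and 79.0 and 79.5% of the others. Over the bases of *ght8* found once, the 2 proteins therefore overlapped in coverage, and the order of Arp5 above Hap2 in its body rested on repeated bases. In *ght2*, with no repeated base, Arp5 lay above Hap2 over the whole body. The repeated bases of *ght1*, *ght3*, *ght4* and *ght6* had no peak in any list. The treatment of reads that fit several places is not given in the sources used here, and its part in the *ght5* and *ght8* peaks was not tested.

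The pattern most like that of *ght8* over the 8 coverage values (body and upstream window in each of 4 lists) was that of *fhn1*, with a Euclidean distance of 29.3 percentage points. *fhn1*, which encodes a plasma membrane protein, had 82.8 and 78.9% of its body under Hap2 and 87.6 and 82.8% under Arp5. Its upstream window was at 85.0 and 100% for Hap2 and 15.7 and 42.3% for Arp5. Next were SPBPB7E8.01 at a distance of 38.5 and *hxk2*, a hexokinase gene, at 39.5. *hxk2* had 88.3 and 80.5% of its body under Hap2 and 83.8% under Arp5 in both lists, with 95.8 and 83% upstream for Hap2 and 0% for Arp5.

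Of 22 genes of glucose signalling, uptake control and phosphorylation, 12 had a Hap2 body peak in both lists, against 31% of coding genes, and 14 an Arp5 body peak in both lists, against 38.1%. In all 4 lists a body peak was found at 10, against 23.6% of coding genes, namely the glucose receptor gene *git3*, the G protein alpha subunit gene *gpa2*, the adenylate cyclase gene *cyr1*, the repressor gene *scr1*, the kinase genes *ssp1* and *gad8*, the hexokinase genes *hxk1* and *hxk2*, and *sds23* and *toe1*. Upstream, 12 of the 22 had Hap2 in both lists, against 25% of coding genes, and 2 (*gpa2* and *rst2*) had Arp5 in both, against 11.6%. Upstream Hap2 with no upstream Arp5 in either list was found at 8 of the 22, and at 3 of the 8 ght genes (*ght1*, *ght3* and *ght5*), against 11.4% of coding genes. Body coverage over these 22 genes was below that of *ght2* and *ght8* in every list, except at *hxk2*. *scr1* had 21.2% in both Hap2 lists and 35.7 and 30.9% in the Arp5 lists, and *hxk2* was the only one past 80% in every list.

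The transporter genes outside the family, *sut1* for disaccharides and *itr1* and *itr2* for inositol, had body peaks in all 4 lists. For neither protein did any of these 3 have an upstream peak in both lists, against 25% of coding genes for Hap2 and 11.6% for Arp5, and *ght4*, *ght6* and *ght7* had none in both lists either. Their bodies were covered less than those of *ght8* and *ght2*. *itr2*, the most covered, had 24.8 and 31.6% under Hap2 and 18.1 and 49.2% under Arp5.

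Peaks were placed on ASM294v3, whose chromosome III is 2452883 bp long, and every list has a peak that stops at exactly that base. Of 171 tRNA genes, which are short and would be missed if coordinates were shifted, 97.7 and 96.5% lay under a Hap2 peak and 81.3 and 86.5% under an Arp5 peak. In 4 members (*ght3*, *ght5*, *ght6* and *ght7*) the annotated body begins at the start codon, so their upstream window is counted from there and would include any leader. Coding GC of the members was 39.0 to 45.3%, against a median of 38.8% for all coding genes.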

How the data were processed

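The authors made 1 peak list per ChIP sample, with MACS2 2.1.2, BWA 0.7.17, Trimmomatic 0.36 and deepTools, as listed in the submitters' processing notes. Not given in the sources used here are the genome build, thresholds, read length, handling of reads that fit several places and the input paired with each sample. The deposited score of a peak is a whole number from 16 upward with no stated scale, so it was used only as a rank. The deposited columns for fold, p and q hold 0 and were not used. Samples were grouped by protein as labelled.

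Peaks on chromosomes I, II and III were kept (6, 8, 1 and 0 on other sequences were left out) and overlapped by at least 1 bp with bodies and 1000 bp upstream windows of the ASM294v3 RefSeq annotation, with Python 3.11.15, numpy 2.4.6 and biopython 1.88 (coding alignments), after checks on simulated peaks. Figures used matplotlib 3.10.9. Depth is unknown. Motifs were counted at 6 of the 7 Hap2 regions outside coding sequence, and 1 is not reported here. The genes, the glucose list and the rules were chosen with earlier results of these data known. Named were all 8 ght genes, a coding neighbour into which a member's peak reached, the 3 genes nearest *ght8* in coverage, glucose-list genes with body or upstream peaks in all 4 lists, and *sut1*, *itr1* and *itr2*. Genes named outside that rule (*dga1*, *wtf4*, *dbl5* and SPCC1529.01) were picked once their values had been seen. As alternatives, counts were repeated with the union of lists, single replicates, higher-scoring peaks, summits, minimum coverage and other windows.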

Additional observations from a re-analysis of the deposited data

How the results depend on the processing

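Of 41 alternatives for 5 counts of members, 32 stayed within 1.5 times the value and 9 did not. With the 1000 highest peaks of each list, Hap2 lay over the body of 2 members (*ght4* and *ght8*) in place of 4, upstream of 2 (*ght1* and *ght8*) in place of 5, and Arp5 upstream of 0 in place of 1. With only peaks scoring above the median of their list, Hap2 lay over the body of 3 members (*ght2*, *ght4* and *ght8*), without *ght5*. With 500 bp upstream, Hap2 was at 3 members (*ght1*, *ght2* and *ght8*), and with 500 bp upstream to 100 bp downstream also at 3. Arp5 upstream was at 2 members with the union of the lists (*ght2* and *ght8*), at 2 with 500 bp upstream to 100 bp downstream (*ght5* and *ght8*), and at 2 with 1000 bp upstream of the start codon (*ght2* and *ght8*), a window chosen after seeing the data. Hap2 in that window was at 5 members, with *ght4* in and *ght1* out, the latter by a few bp in replicate 1. Leaving out 1 replicate gave 4 to 5 members for Hap2 over the body, 5 to 6 for Hap2 upstream, 3 to 4 for Arp5 over the body, 1 to 2 for Arp5 upstream (2 without replicate 1, *ght2* and *ght8*) and 3 to 4 for bodies covered more by Arp5. Pairing lists by replicate number, as a replicate block, added no member to the 3 with more body under Arp5 (*ght2*, *ght5* and *ght8*). By the rule it could remove none. Having 2 lists per protein, without reads, limits what can be told: no error on a peak's height, no test between proteins, and no statement on genes below the peak threshold.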
